A study of Homo sapiens with 7 samples.

Results

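GLIS3, CDKAL1, KCNQ1, IGF2BP2, ADCY5 and JAZF1 are genes at which common variants have been associated with the risk of type 2 diabetes. Their surroundings were searched for regions occupied by HNF6, GATA6 and NKX6.1 in human cells differentiating toward pancreas. A region was chosen by position alone, when its midpoint lay within 50 kb of the hg19 span of one of the 6 genes. This gave 120 regions, of 86081 in the 4 deposited lists. They comprised 89 of 64919 HNF6 regions of day 10, 9 of 6285 listed GATA6 regions of day 10, 22 of 14627 NKX6.1 regions of day 13, and 0 of 250 HNF6 regions of day 5.

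The cells were CyT49, an established human embryonic stem cell line. Chromatin immunoprecipitation and sequencing was done for HNF6 at the progenitor stage of day 10 (labelled PE) and, earlier, at the gut tube endoderm stage of day 5 (labelled GTE), for GATA6 on day 10 (PE) and for NKX6.1 on day 13 (labelled PP). No genetic change or added treatment beyond the differentiation protocol is given in the labels. With 1 library for each factor and day there are no replicates, so no p-value was computed and regions are not counted as repeats of a condition. Read depth is unknown from peak lists, and 3 input libraries were not analysed here. The stage names could not be checked against marker expression, since the files hold peak positions only.

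The genes have different roles. GLIS3 is a zinc finger transcription factor needed for beta cell development, and its recessive loss causes neonatal diabetes with hypothyroidism. CDKAL1 is an enzyme that modifies a lysine transfer RNA. KCNQ1 is a voltage-gated potassium channel in an imprinted domain, and the antisense RNA KCNQ1OT1 starts inside it. IGF2BP2 is an RNA-binding protein, ADCY5 is an adenylyl cyclase that makes cyclic AMP, and JAZF1 is a zinc finger cofactor of nuclear transcription complexes. HNF6 (ONECUT1) and NKX6.1 are homeodomain factors and GATA6 is a zinc finger factor of pancreatic progenitors. A factor bound inside or near a gene need not regulate that gene.

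Sequence was available for promoters from RefSeq (GRCh38.p14) and was not read at the hg19 regions themselves. All 6 genes matched the RefSeq gene table by symbol, and 4 of them (GLIS3, CDKAL1, IGF2BP2 and ADCY5) matched 7 windows in the promoter table, with no entry for JAZF1 and KCNQ1. Shown are the 250 bases before the RefSeq start of CDKAL1 and of ADCY5 (its outermost start), because these are the matched genes with a listed region within 1 kb of the start of their span. The listed region at ADCY5 was not placed on the printed bases. RefSeq gives that gene 166.8 kb and the span used here is 167.5 kb, so their starts may differ.
CDKAL1 promoter (GRCh38.p14, chr6:20534207-20534456, plus strand): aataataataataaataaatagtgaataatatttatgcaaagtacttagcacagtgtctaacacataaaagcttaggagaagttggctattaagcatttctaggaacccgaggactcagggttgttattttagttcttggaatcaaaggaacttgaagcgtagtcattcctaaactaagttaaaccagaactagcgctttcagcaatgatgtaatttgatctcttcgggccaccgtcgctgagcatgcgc
ADCY5 promoter (GRCh38.p14, chr3:123449091-123449340, minus strand): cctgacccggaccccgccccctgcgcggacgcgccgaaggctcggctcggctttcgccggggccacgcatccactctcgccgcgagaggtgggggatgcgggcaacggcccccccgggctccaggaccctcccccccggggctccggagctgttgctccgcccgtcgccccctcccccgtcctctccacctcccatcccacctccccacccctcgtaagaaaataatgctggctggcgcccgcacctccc
The 2 windows differed in base composition, with 37.2% G and C at CDKAL1 and 74.8% at ADCY5, against a median of 58.0% over 35116 RefSeq windows. The HNF6 words ATCAAT and ATCGAT, the GATA word AGATAA and the NKX6.1 word TAATTA with its longer form TTAATTA were searched on both strands. None of the 5 words occurred in the 7 windows of the 4 genes, so no letter is in capitals. Over all RefSeq windows, 5.58% held ATCAAT, 0.655% ATCGAT, 9.17% AGATAA, 4.35% TAATTA and 2.44% TTAATTA. These letters being missing from a window of this length says nothing about binding elsewhere.

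HNF6 was listed at every one of the 6 loci on day 10, NKX6.1 at 5 and GATA6 at 3. CDKAL1 and GLIS3 held most of the regions: 63 of 89 for HNF6, 8 of 9 for GATA6 and 16 of 22 for NKX6.1. Their windows are also the longest, with 798 kb and 576 kb of the 2877 kb searched, and densities per length are given below. KCNQ1, JAZF1 and ADCY5 held no listed GATA6 region, and ADCY5 held no NKX6.1 region. The exact Poisson 95% upper bounds for GATA6 there were 0.732, 0.819 and 1.38 per 100 kb, above the 0.206 of the whole list. For NKX6.1 at ADCY5 the bound was 1.38, above the 0.479 of its whole list. Windows of this length therefore cannot show a difference from the whole lists in these absences. The GATA6 list gives 6285 of 19404 peak numbers, and 100% of its regions overlap HNF6, so GATA6 away from HNF6 is not covered by it at any locus. No region of the 6 loci was in the HNF6 list of day 5. At the density of that whole list, 0.236 regions would fall in a stretch of this length, so its absence is not a difference between the days that these lists can show. Likewise 0 of the 89 day 10 regions overlapped a day 5 region, which 0.347% of all HNF6 regions of day 10 did.

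Per length, HNF6 regions of day 10 were found at 3.09 per 100 kb over the 6 windows (exact Poisson 95% interval 2.48 to 3.81, counting error only) and at 2.13 per 100 kb over the chromosomes of the whole list. The 500 kb on either side of the windows held 2.55 per 100 kb. Without CDKAL1 the other 5 loci held 2.07 per 100 kb, so the higher density rested on that locus. NKX6.1 was found at 0.765 per 100 kb (0.479 to 1.16), against 0.479 in the whole list and 0.517 on either side, and at 0.577 without CDKAL1. GATA6 was found at 0.313 per 100 kb (0.143 to 0.594), against 0.206 in the whole list and 0.167 on either side, and at 0.192 without CDKAL1, which held 5 of the 9 regions. The GATA6 interval includes the density of its whole list. That of NKX6.1 starts at the density of its own whole list. All listed GATA6 regions overlap HNF6, so their density is not a measure separate from that of HNF6.

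**Figure D1:**
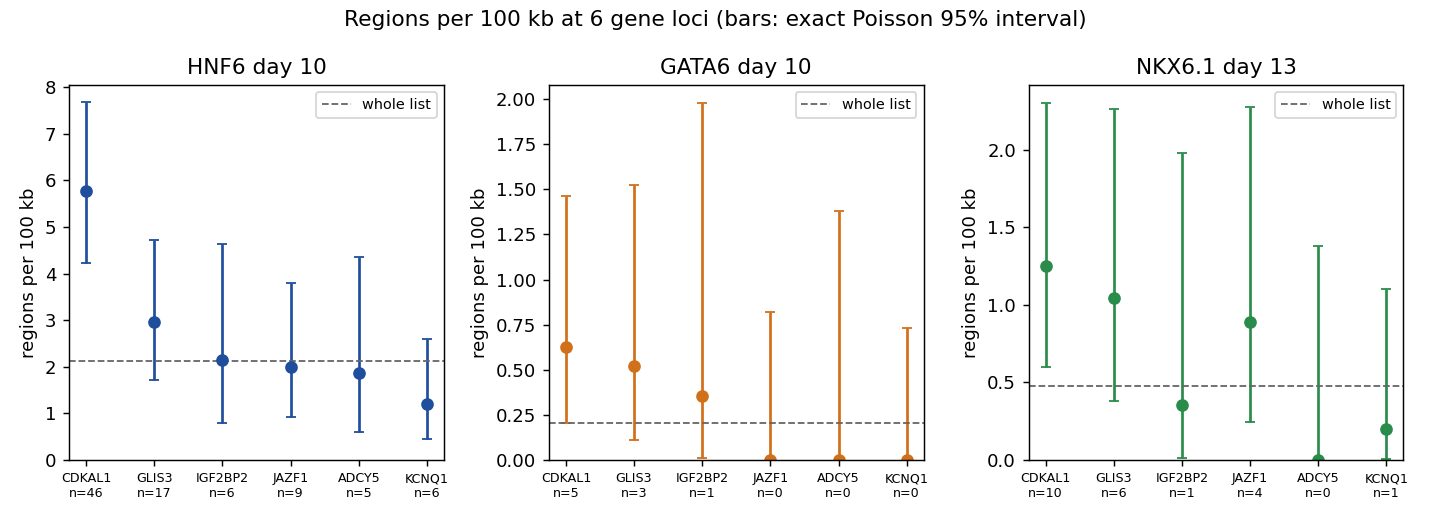
Regions per 100 kb (y axis) at each locus (x axis, with the number of regions) for HNF6 day 10, GATA6 day 10 and NKX6.1 day 13; points are counts over window length, bars are exact Poisson 95% intervals, and the dashed line is the whole list. CDKAL1, at 5.76 HNF6 regions per 100 kb, is the only locus whose HNF6 interval lies above the dashed line at 2.13.

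In order of HNF6 density the loci were CDKAL1 with 5.76 regions per 100 kb (4.22 to 7.69), GLIS3 with 2.95 (1.72 to 4.73), IGF2BP2 with 2.13 (0.783 to 4.64), JAZF1 with 1.999 (0.914 to 3.79), ADCY5 with 1.87 (0.607 to 4.36) and KCNQ1 with 1.19 (0.437 to 2.59). The intervals of each pair of neighbours in this order overlapped. That of CDKAL1 lay above those of JAZF1 and KCNQ1 and overlapped the rest. These intervals take regions as placed independently of each other. HNF6 regions cluster: 25.1% of the genome's 100 kb windows held none and the fullest held 18. The intervals may therefore be too narrow, and their separation is a description and not a test. The order of NKX6.1 began alike, with 1.25 per 100 kb at CDKAL1, 1.04 at GLIS3 and 0.888 at JAZF1, followed by 0.355 at IGF2BP2, 0.198 at KCNQ1 and 0 at ADCY5. All neighbours in the NKX6.1 order overlapped in their intervals. For HNF6, the 500 kb on either side of each window held 3.9 per 100 kb at CDKAL1, 3.3 at GLIS3 and 1.9 at IGF2BP2. The sides held 2.5 at JAZF1, 2.4 at ADCY5 and 1.3 at KCNQ1.

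The spans make up 2277 of the 2877 kb searched, and most regions lay within them. Inside the spans, HNF6 had 78 regions, or 3.43 per 100 kb, and in the flanks 11, or 1.83 per 100 kb. CDKAL1 held 44 of the 78, at 6.30 per 100 kb inside and 2 in its flanks. GLIS3 (3.57 against 0), KCNQ1 (1.48 against 0) and IGF2BP2 (2.21 against 2) were also denser inside. ADCY5 (1.19 inside, 3 in the flanks) and JAZF1 (1.43 and 4) went the other way. GATA6 had 9 inside and 0 in the flanks. At the 0.206 per 100 kb of its whole list, flanks of 600 kb are too short to show a difference in this absence. NKX6.1 had 19 inside (0.834 per 100 kb) and 3 in the flanks (0.5 per 100 kb). Whether a region is exonic or intronic was not determined, because no hg19 annotation was used here. The limit of 50 kb left few regions close to it: for HNF6, 1 member lay in the last 10 kb inside the windows and 2 regions in the first 10 kb outside.

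**Figure D2:**
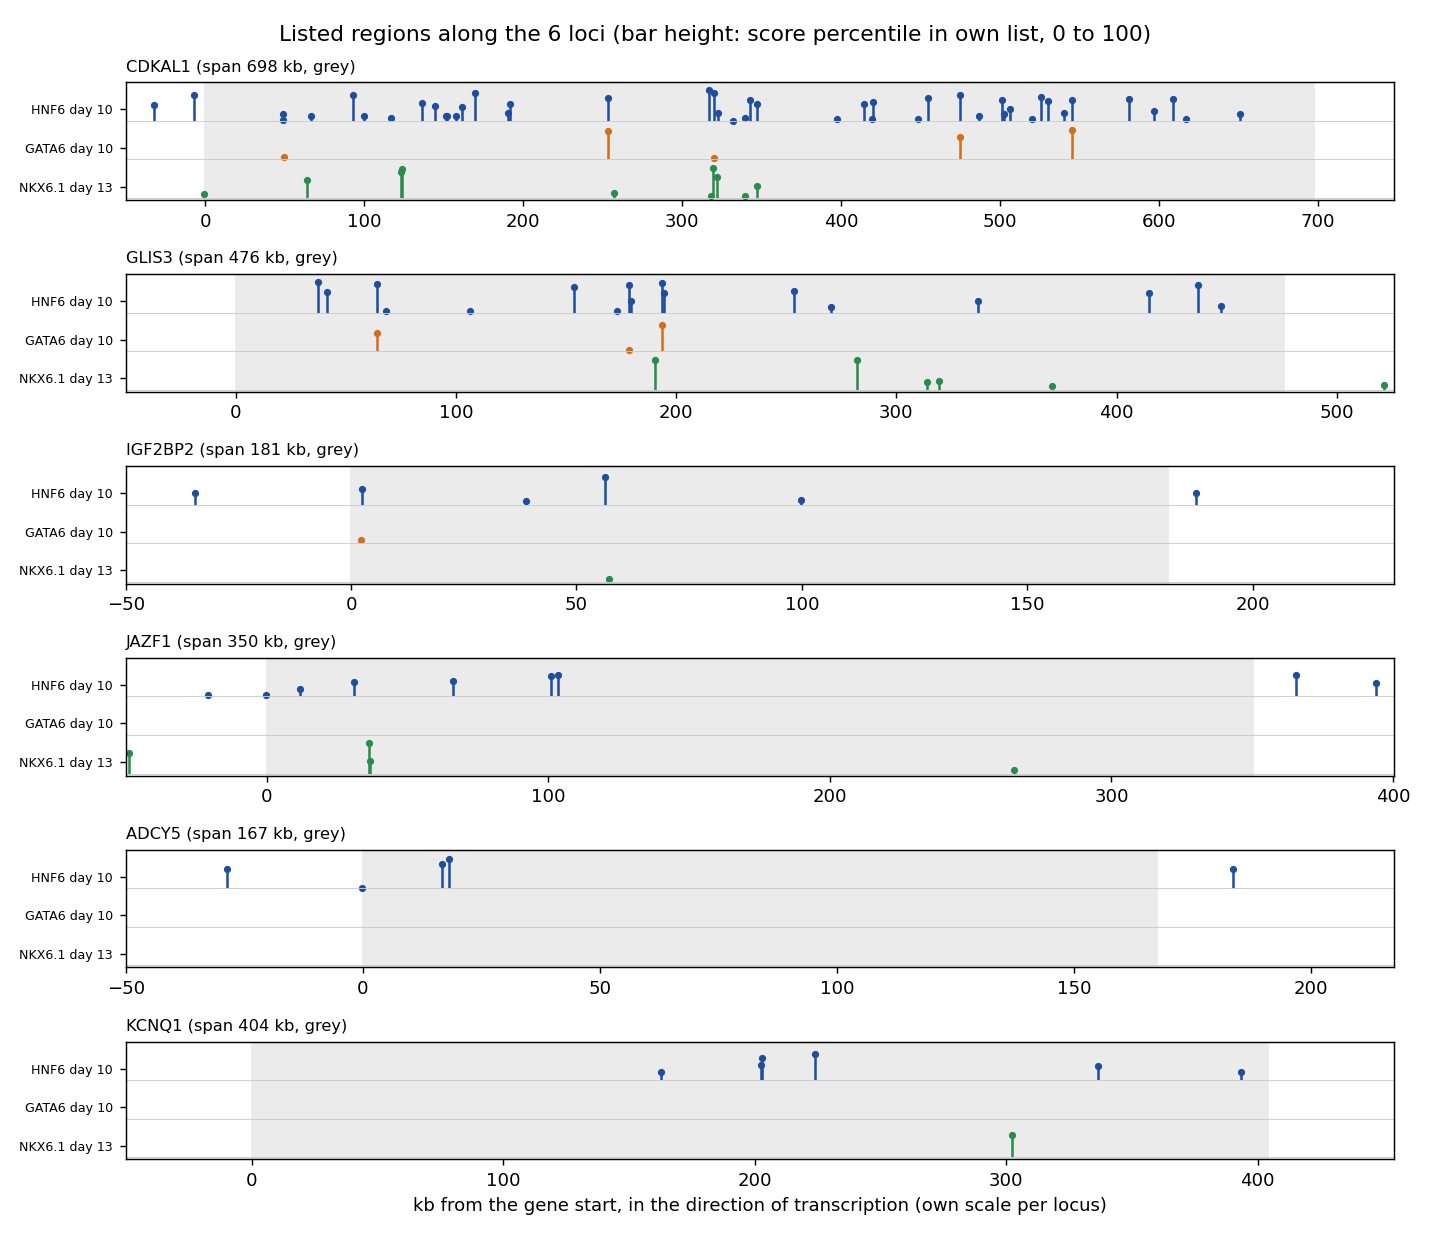
Position of each listed region along the 6 loci, in kb from the gene start in the direction of transcription (x axis, own scale per locus), on rows for HNF6 day 10, GATA6 day 10 and NKX6.1 day 13; the height of a line and its dot is the score percentile from 0 to 100 in the region's own list, and grey marks the gene span. Inside CDKAL1, HNF6 regions lie from 48.8 to 651 kb past the start, sparsely between 192 and 317 kb, and the farthest NKX6.1 region lies at 347 kb.

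CDKAL1 (hg19 chr6:20534688-21232635, plus strand) was the locus with the most regions of each factor. HNF6 had 46 regions there, 44 of them inside the gene, at score percentiles from 0.0816 to 99.7 with a median of 41.1. The percentile is the region's rank by score in its own list, from lowest to highest and as a percentage of the list. Tied scores share their mean rank, and 50 is the middle of the list. Of the 46 regions, 25 were at or below the median of the list and 2 were above the percentile of 90. The 500 kb on either side of the window held 3.90 HNF6 regions per 100 kb and chromosome 6 as a whole 2.66.

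HNF6 regions at CDKAL1 lay close together. Of the 46, 35 had another HNF6 midpoint within 10 kb, or 76.1% (Wilson 95% interval 62.1 to 86.1). Over all 6 loci this held for 50 of 89, or 56.2% (45.8 to 66.0), and the share in the whole day 10 list was 49.2%. The share follows density in part, since a denser stretch has nearer neighbours. Counted in consecutive windows of 100 kb, CDKAL1 held 10 HNF6 regions both from 20.6 to 20.7 Mb and from 21.0 to 21.1 Mb of chromosome 6, and 0.649% of the 30505 such windows of the genome held as many or more. The median window of the genome held 2. The CDKAL1 windows named were picked as the densest of the 6 loci, so the percentage is a description and not a test.

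The strongest HNF6 region of CDKAL1 stood far above its neighbours in rank. It lay at chr6:20851411-20851807, 317 kb from the gene start, with a score of 2262 and rank 170 of 64919 regions (percentile 99.7). It overlapped neither a listed GATA6 nor an NKX6.1 region. The next at this locus, chr6:20704119-20704500, had a score of 469 (percentile 92.1) and no listed partner either. The HNF6 region nearest to the gene start was chr6:20527629-20527934, 6.91 kb upstream, with a score of 267 (percentile 84.4).

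A group of regions of all 3 factors, with NKX6.1 from day 13 and the others from day 10, lay just past that strongest region. Within 10 kb of it were 3 HNF6 regions (itself included), 3 NKX6.1 regions and 1 GATA6 region. NKX6.1 was at chr6:20852813-20852900 (score 20, percentile 6.98), 1.25 kb from the HNF6 midpoint. The strongest NKX6.1 region of the locus followed at chr6:20854032-20854198 (score 309, percentile 96.9), 2.51 kb away. An HNF6 region at chr6:20854332-20854933 (score 374, percentile 89.5) overlapped a GATA6 region at chr6:20854598-20854879, which was near the bottom of its list (score 25, percentile 3.54). That HNF6 region began next to the strong NKX6.1 region without overlapping it, with midpoints 0.518 kb apart. The last pair was HNF6 at chr6:20856983-20857170 (score 48, percentile 24.9) and NKX6.1 at chr6:20856965-20857057 (score 77, percentile 68.6), which did overlap.

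**Figure D3:**
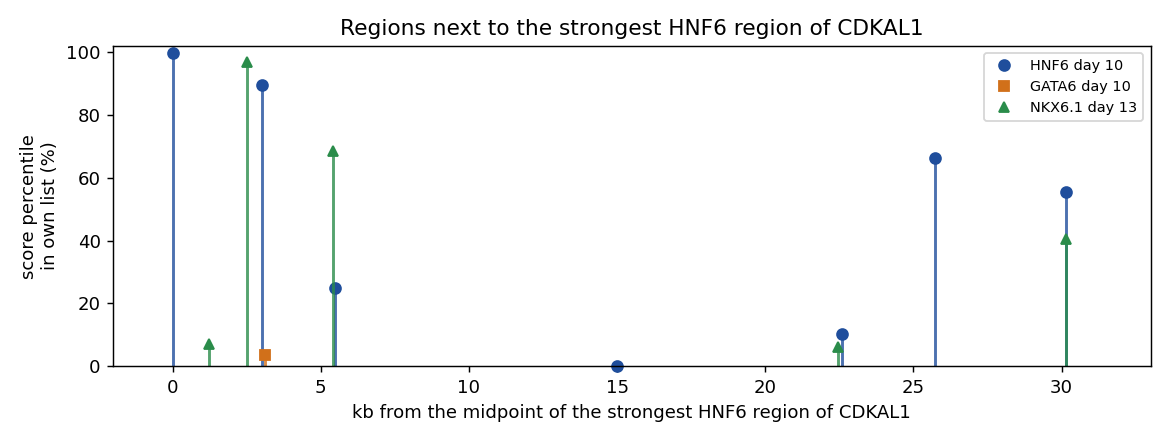
Regions next to the strongest HNF6 region of CDKAL1, by distance in kb from its midpoint (x axis) and score percentile in their own list (y axis); circles are HNF6 day 10, squares GATA6 day 10 and triangles NKX6.1 day 13. The strong NKX6.1 region stands between the HNF6 regions at 0 and 3.02 kb, and a second group follows between 22.5 and 30.2 kb.

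NKX6.1 at CDKAL1 was most frequent in the stretch that held this group. Of its 10 regions, 5 lay from 20.8 to 20.9 Mb, a number that 0.131% of the genome's windows of 100 kb (40 of 30505) reached. The stretch was picked as the densest of the loci for NKX6.1, so this percentage is a description and not a test. The window from 20.8 to 20.9 Mb also held 7 HNF6 regions and 1 GATA6 region. That from 21.0 to 21.1 Mb had 10 HNF6 regions, 2 GATA6 regions and 0 NKX6.1 regions, and 65.0% of the genome's windows had no NKX6.1 region either. A further NKX6.1 pair stood apart from HNF6, at chr6:20657852-20657967 (score 117, percentile 83.7) and chr6:20658386-20658509 (score 199, percentile 92.7), 6.51 kb and 7.05 kb from the nearest HNF6 midpoint. The NKX6.1 region nearest to the gene start, chr6:20533858-20533936, lay 0.791 kb upstream, outside the 250 bases printed above, and was weak (score 25, percentile 13.2).

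GATA6 at CDKAL1 was strongest in places of moderate HNF6. Its strongest region, chr6:21079886-21080366, had a score of 787 (percentile 95.02) and overlapped an HNF6 region of score 135 (percentile 69.2). The next, chr6:20788176-20788579, had a score of 621 (percentile 92.6) with HNF6 at 172 (percentile 75.4). At chr6:21009698-21009956 GATA6 had a score of 224 (percentile 74.3) with HNF6 at 280 (percentile 85.3). The weakest pair, 49.2 kb from the gene start, had GATA6 at percentile 9.58 and HNF6 at 2.22. Scores of different lists are not on one scale, so only ranks within each list are set side by side.

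GLIS3 (hg19 chr9:3824127-4300035, minus strand) had fewer HNF6 regions than CDKAL1, of which more were high in their list. All 17 lay inside the span, with a median percentile of 64.1 (range 6.16 to 98.5), and 4 were above the percentile of 90. At CDKAL1 this held for 2 of 46. Both counts are small, and the difference between the 2 loci was not tested. The whole list had 10.0% of its regions above that percentile, and the 6 loci together had 8 of 89, or 8.99% (4.63 to 16.7), which is close to that background. The strongest HNF6 region of GLIS3, chr9:4262517-4262931, had a score of 1303 (percentile 98.5) and overlapped no region of another list. It was also the member nearest to the start of the span, at 37.3 kb inside it. RefSeq gives a longer gene, as described below, so the start of the span need not be that of GLIS3.

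GATA6 at GLIS3 was found at 3 HNF6 regions of high rank. Its strongest region, chr9:4106108-4106481 (score 344, percentile 84.3), overlapped HNF6 of score 924 (percentile 97.1), 194 kb from the start of the span. At chr9:4235566-4235962 GATA6 had a score of 141 (percentile 61.0) with HNF6 at 577 (percentile 93.9). At chr9:4121310-4121593 GATA6 was weak (score 23, percentile 2.85) with HNF6 at 376 (percentile 89.5). The strongest of these pairs had NKX6.1 close by, at chr9:4109424-4109637 (score 260, percentile 95.6), 3.23 kb from the HNF6 midpoint.

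NKX6.1 at GLIS3 had 6 regions, 0 of which overlapped HNF6, against 14.3% of all NKX6.1 regions that did. At that share, 6 regions are too few to show a difference. The strongest, chr9:4017859-4018013, had a score of 377 (percentile 98.1) and lay 11.7 kb from the nearest HNF6 midpoint. The other 4, apart from the one of score 260 named above, were weak, with percentiles from 11.8 to 30.3. The RefSeq gene of GRCh38.p14 is 666 kb long and the span used here 476 kb, so a further part of GLIS3 lay outside the window in which members were counted. The nearest HNF6 region beyond the window on the side of the span's start was 9.70 kb outside, with a score of 624 (percentile 94.5). Whether it lies within the longer gene was not determined.

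At IGF2BP2 (hg19 chr3:185361527-185542844, minus strand) the factors met once, close to the start. HNF6 had 6 regions, with percentiles from 10.3 to 90.6 and a median of 37.5. The HNF6 region nearest to the gene start, chr3:185540296-185540585, lay 2.40 kb inside the gene with a score of 79 (percentile 49.9). It overlapped the one GATA6 region of the locus, chr3:185540564-185540742 (score 38, percentile 11.2). The strongest HNF6 region was chr3:185486308-185486690 (score 411, percentile 90.6), and the one NKX6.1 region, chr3:185485596-185485683 (score 21, percentile 7.59), lay 0.860 kb from it. Both partners of HNF6 were thus low in their own lists. RefSeq places SENP2 next to IGF2BP2.

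ADCY5 (hg19 chr3:123001143-123168605, minus strand) had listed regions of HNF6 and of no other factor. The strongest region, chr3:123150184-123150533, had a score of 659 (percentile 94.97) and formed a pair with chr3:123151680-123151988 (score 195, percentile 78.5), 1.48 kb apart and 18.2 kb and 16.8 kb inside the gene. The other 3 regions were in the flanks. One of them, chr3:123168700-123168899, was centred 0.195 kb upstream of the span's start and was among the weakest of the list (score 18, percentile 1.94). The nearest listed GATA6 region was 11.6 kb outside the window, past the gene start, with a score of 192 (percentile 70.6), and an HNF6 region of score 585 (percentile 94.0) was 11.6 kb outside as well.

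JAZF1 (hg19 chr7:27870192-28220437, minus strand) had HNF6 regions of middle and low rank and 1 strong NKX6.1 region. The 9 HNF6 regions had percentiles from 3.72 to 70.7, with a median of 46.1 and 0 above 90. The strongest was chr7:28116723-28117216 (score 142). As at ADCY5, a weak HNF6 region was centred just upstream of the span's start, at chr7:28220538-28220858 (0.261 kb upstream, score 23, percentile 3.72). The strongest NKX6.1 region, chr7:28183973-28184138, had a score of 406 and rank 235 of 14627 (percentile 98.4). It lay 36.4 kb inside the gene beside a weaker one at chr7:28183675-28183843 (score 48, percentile 42.4). The nearest HNF6 midpoint was 5.24 kb away.

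KCNQ1 (hg19 chr11:2466221-2870340, plus strand) had the lowest HNF6 density of the 6 loci. Its window held 1.19 per 100 kb and the 500 kb on either side 1.3. All 6 of its HNF6 regions lay in the gene, from 163 kb to 393 kb past the start, and the one nearest to the start was chr11:2629018-2629221 (score 49, percentile 26.9). The strongest, chr11:2690008-2690351, had a score of 274 (percentile 85.0). The one NKX6.1 region, chr11:2768494-2768590 (score 84, percentile 72.8), was 34.2 kb from the nearest HNF6 midpoint. On the side of the gene end, where CDKN1C and SLC67A1 are the next protein-coding genes in RefSeq, an HNF6 region of score 642 (percentile 94.7) lay 29.9 kb outside the window.

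**Figure D4:**
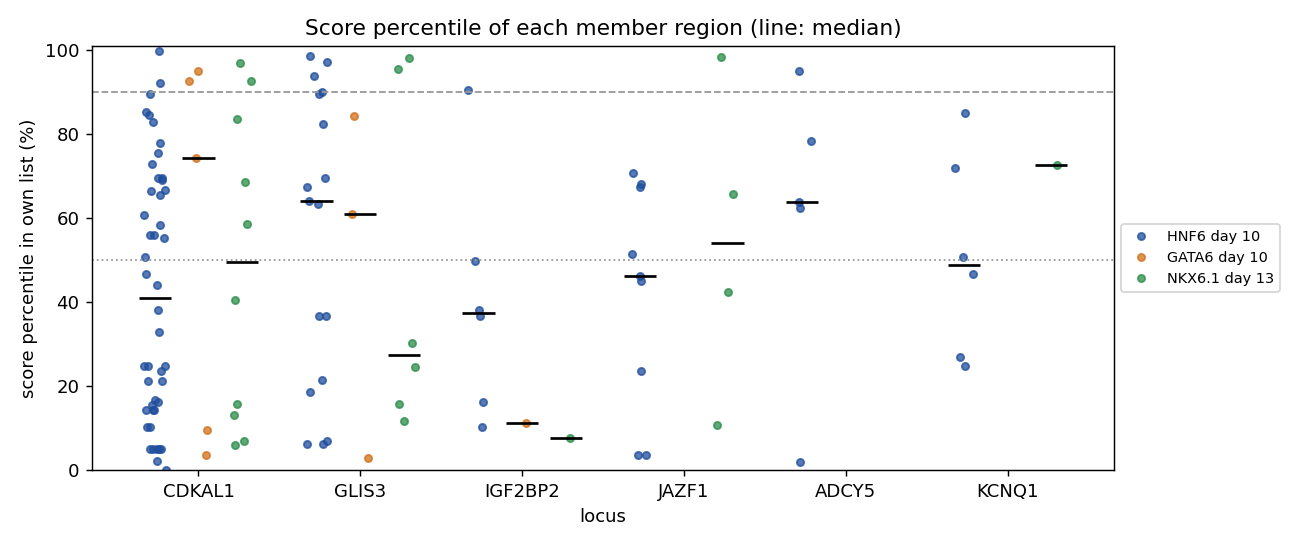
Score percentile in its own list (y axis) of each of the 89 HNF6, 9 GATA6 and 22 NKX6.1 regions, by locus (x axis); black lines are medians, the dotted line is 50 and the dashed line is 90. NKX6.1 points at GLIS3 lie at 95.6 and above or at 30.3 and below, and HNF6 points at CDKAL1 reach from the bottom to the top of the scale.

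Overlap between factors at the loci was near that of the whole lists. NKX6.1 was profiled on day 13 and HNF6 and GATA6 on day 10. Overlap with NKX6.1 is thus between stages and does not show binding in the same cells. GATA6 was found at 9 of 89 HNF6 regions, or 10.1% (5.41 to 18.1), and at 9.66% of all HNF6 regions of day 10. NKX6.1 was found at 2 of 89, or 2.25% (0.618 to 7.83), against 3.20% in the whole list, and both were at CDKAL1. Counted from NKX6.1, 2 of 22 regions, or 9.09% (2.53 to 27.8), overlapped HNF6, against 14.3%. NKX6.1 regions are narrow, with a median width of 99 bp in the whole list, against 261 bp for HNF6 and 285 bp for GATA6. An overlap from 1 bp depends on these widths. With midpoints within 200 bp instead, the shares were 3.37% of the 89 and 13.6% of the 22. An HNF6 midpoint within 5 kb was found for 9 of 22 NKX6.1 regions, or 40.9% (23.3 to 61.3), against 37.9%. The 9 NKX6.1 regions were 7 at CDKAL1, 1 at GLIS3 and 1 at IGF2BP2.

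None of the 89 HNF6 regions overlapped both GATA6 and NKX6.1 (0%, upper bound 4.14%). In the whole list 1.15% did, which corresponds to 1.02 of 89, so this number of regions cannot show a difference. Likewise 0 of 22 NKX6.1 regions overlapped a listed GATA6 region (upper bound 14.9%), against 5.18% in the whole list, and 0 of 9 GATA6 regions overlapped NKX6.1 (upper bound 29.9%), against 11.8%. A GATA6 region had an NKX6.1 midpoint within 5 kb in 3 of 9 cases, or 33.3% (12.1 to 64.6), against 20.4%. These were 2 at CDKAL1 and 1 at GLIS3, where the listed regions of day 10 and day 13 lay near each other without overlapping.

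All 9 GATA6 regions overlapped HNF6, as did the whole of that list, so this share is a property of the list and not of the loci. HNF6 regions with GATA6 had a median HNF6 percentile of 85.3 (n = 9, range 2.22 to 97.1) and those without it 44.5 (n = 80). The corresponding medians of the whole list were 82.4 and 47.5.

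Some NKX6.1 regions of the loci were among the highest of their list. Above the percentile of 90 were 5 of 22 NKX6.1 regions, or 22.7% (10.1 to 43.4), against 10.0% in the whole list: the regions of score 377 and 260 at GLIS3, 309 and 199 at CDKAL1, and 406 at JAZF1. None of the 5 overlapped HNF6 (Wilson interval of this share 56.6 to 100%), and neither did 72.8% of all NKX6.1 regions above 90 (1065 of 1462), so 5 regions cannot show a difference in this. The lower bound of the share above 90, 10.1%, is barely above the 10.0% of the list, so with 5 regions at 3 loci the difference is small against counting error. For GATA6, 2 of 9 regions were above 90, or 22.2% (6.32 to 54.7), against 9.99% of its list, and both were at CDKAL1. Of the 8 HNF6 regions above 90, 6 had no listed GATA6 region, or 75.0% (40.9 to 92.9), against 64.6% of those above 90 in the whole list.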

How the data were processed

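Per the submitters' processing notes, the tools were Bowtie2 2.3.4.1 and MACS2 2.1.1.20160309 and the build was hg19, listed with no role or setting. The authors deposited 1 headerless list per library with position, peak name and a score of unstated unit, used here only to rank regions within a list. The extraction protocol names an NKX6.1 antibody alone, per the labels' protocols, while the antibody characteristic of each list matched its title. Whether the inputs were used in calling is not stated. List length also depends on sequencing depth, which is unknown.

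Rows with the same coordinates were merged, keeping the highest score. Spans came with the choice of genes, and a gene start means the start of the span on the gene's strand. The 6 loci, the lists and all measures were chosen with earlier results of these data known. Regions named are the strongest of each list per locus, the HNF6 region nearest to the gene start, and regions with all factors or from day 5 (none); others were added after their values were seen. Overlap counts from 1 bp (Python 3.11.15, numpy 2.4.6, pandas 2.3.3) were checked against bedtools 2.31.1 and tested on simulated data. Shares have Wilson intervals (statsmodels 0.14.6) and densities exact Poisson intervals (scipy 1.17.1), both at 95% and for counting error only. Both take regions as independent of each other. Chromosome length is the farthest listed position. Alternatives were other flanks, overlap rules, score limits, unmerged rows and each locus left out. No p-value was computed.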

Additional observations from a re-analysis of the deposited data

How the results depend on the processing

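Of 126 values under alternatives, 119 stayed within the 95% interval of the reported value (counts, within 1.5 times) and 7 moved. Among regions whose score exceeds their list's median, HNF6 density fell to 1.49 per 100 kb, NKX6.1 density to 0.348, and NKX6.1 at HNF6 regions and HNF6 at NKX6.1 regions both to 0%. Lower densities follow from the smaller lists. Without CDKAL1, HNF6 density was 2.07 per 100 kb and both of those shares were 0%, since that locus held the 2 overlapping pairs. With flanks of 0, 20 or 100 kb, no value left its interval. The number of HNF6 regions with both partners and the number of day 5 regions were 0 under each alternative. Only the flank of 100 kb and, for overlaps, midpoints within 200 bp could have raised these numbers. The other alternatives could only return 0, so they do not test it, and they count among the 119. The median GATA6 percentile ranged from 36.1 to 67.6 and stayed within its interval, which is wide (3.54 to 92.6). The share of HNF6 regions with GATA6 ranged from 7.87 to 11.6%. Small counts (9 GATA6 and 22 NKX6.1 regions) limit all shares. No paired analysis was possible because each group had 1 library.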
